A study of Mus musculus with 43 samples.

Results

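Heme is built by 8 enzymes, and the genes of 7 of them, Alas2, Alad, Uros, Urod, Cpox, Ppox and Fech, were examined for occupancy by EKLF in mouse fetal liver. The enzyme of the remaining step was not analysed here. The 7 genes were looked up by symbol in a RefSeq table, where they are 7 of 21523 protein-coding genes. A called EKLF region was counted for a gene when its centre lay in the gene or within 10 kb of either end. By this rule the 7 genes held 22 of the 15564 regions called in Nan/+ livers and 39 of the 9181 regions called in WT livers.

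Liver was taken at day E13.5 from embryos with 1 Nan copy of Klf1 (Nan/+) and from littermates without it (labelled Nan strain WT, here WT). Klf1 encodes EKLF, an erythroid transcription factor whose zinc fingers bind CACCC-type sites, and the Nan allele changes one of those fingers. Nan/+ embryos also carry a wild-type Klf1 allele, and a called region does not show which of the proteins was bound. Each genotype is represented by 1 list of regions called over 3 chromatin immunoprecipitation (ChIP) libraries made with the antibody 7B2a anti-eklf, so the comparisons below have no replicate check and no test. The samples are labelled primary erythroid, and the labelled protocol disperses whole liver and names no sorting step. Of 13 erythroid marker genes, 13 had a region in Nan/+ and 13 in WT. Of the markers of other liver cells, 3 of 10 hepatoblast genes had a region in Nan/+ and 2 of 10 in WT, 1 of 9 macrophage genes in each list, 5 of 8 megakaryocyte genes in Nan/+ and 2 of 8 in WT, and 2 of 6 endothelial genes in Nan/+ and 0 of 6 in WT. Of all protein-coding genes 37.5% had a region in Nan/+ and 33.5% in WT. The ChIP libraries held 72023512 to 100763687 tags in Nan/+ and 74140385 to 103170594 tags in WT.

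Heme synthesis starts in the mitochondrion, where an aminolevulinate synthase joins glycine and succinyl-CoA, continues in the cytosol through Alad, Uros and Urod, and returns to the mitochondrion for Cpox, Ppox and Fech. Red cell precursors use an erythroid form of the first enzyme, Alas2, and need far more heme than other cells because each globin chain holds one heme group. Erythroid transcription factors, GATA1 and EKLF among them, are known to act on genes of this pathway.

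The stretches before 3 of the gene starts are shown because their EKLF regions differed in kind: a Nan/+ region alone at Alas2, a WT region alone at Urod and a region in both lists at Cpox. Each is the 250 bases that precede the start in the RefSeq promoter table (GRCm38.p6, the assembly that mm10 renders), written 5′ to 3′ on the strand of the gene. Capitals mark matches to the EKLF-type sites CCNCNCCC and CACCC on either strand, which can overlap each other.
Alas2 (chrX:150547167-150547416, plus strand): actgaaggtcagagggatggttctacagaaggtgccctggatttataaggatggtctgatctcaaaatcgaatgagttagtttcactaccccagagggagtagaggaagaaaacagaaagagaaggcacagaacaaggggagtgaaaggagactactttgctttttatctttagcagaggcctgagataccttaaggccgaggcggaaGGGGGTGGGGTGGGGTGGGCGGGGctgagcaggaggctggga
Urod (chr4:116994414-116994663, minus strand): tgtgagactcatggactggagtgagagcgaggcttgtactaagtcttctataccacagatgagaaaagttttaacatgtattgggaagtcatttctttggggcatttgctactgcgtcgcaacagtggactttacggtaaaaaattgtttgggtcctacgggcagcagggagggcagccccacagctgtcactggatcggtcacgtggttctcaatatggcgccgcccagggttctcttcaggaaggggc
Cpox (chr16:58669958-58670207, plus strand): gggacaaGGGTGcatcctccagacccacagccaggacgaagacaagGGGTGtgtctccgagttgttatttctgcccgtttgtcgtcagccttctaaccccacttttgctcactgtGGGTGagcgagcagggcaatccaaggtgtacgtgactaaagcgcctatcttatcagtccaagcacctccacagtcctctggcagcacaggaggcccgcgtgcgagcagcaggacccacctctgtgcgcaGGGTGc
The Alas2 stretch holds a G-rich run close to the start, the Cpox stretch holds short CACCC matches spread along it, and the Urod stretch holds no match.

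Over the pathway, fewer regions were called in Nan/+ than in WT at 4 of the 7 genes, Alad, Cpox, Ppox and Fech. More were called in Nan/+ at 1, Uros, and equal numbers at 2, Alas2 and Urod. Among all protein-coding genes 15.2% had fewer regions in Nan/+ than in WT, 23.0% had more and 9.36% had equal numbers above 0. A region was present at 6 of the 7 genes in Nan/+ and at 7 of 7 in WT, beside those shares of all genes, 37.5% in Nan/+ and 33.5% in WT. A region in both lists was present at 6 of the 7 genes, beside 23.5% of all genes. Of these 6 genes, Cpox, Ppox and Fech had fewer regions in Nan/+, and Alad, without a Nan/+ region, is not among them. Of all genes with a region in both lists, 22.0% had fewer in Nan/+. The 7 genes were chosen with results of these lists known, so their counts stand beside those shares as a description. The lists were also called with different settings for region size and minimum distance. The effect of these settings on the counts was not tested. The median difference in the number of regions, Nan/+ minus WT, was -2 over the 7 genes and 0 over all genes. It was -1 over the 13 erythroid markers, of which 7 had fewer regions in Nan/+, 4 had more and 2 had equal numbers.

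**Figure D1:**
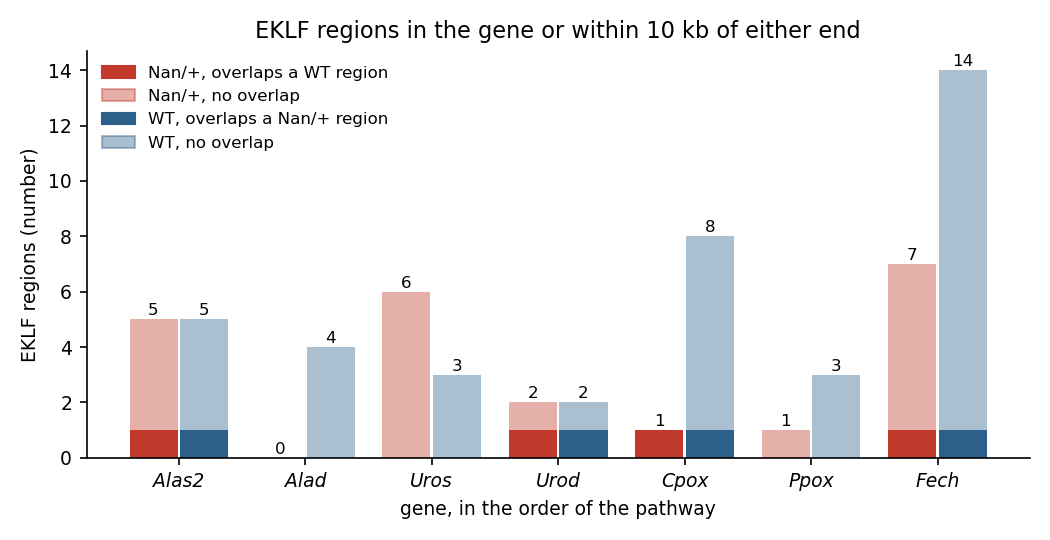
Number of EKLF regions in each heme enzyme gene or within 10 kb of either end, with Nan/+ bars left of WT bars and full colour for regions that overlap the other list. Nan/+ bars are lower than WT bars at Alad (0 and 4), Cpox (1 and 8), Ppox (1 and 3) and Fech (7 and 14), and higher at Uros (6 and 3).

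Most regions at these genes, as in the whole lists, did not coincide between the genotypes. Of the 22 Nan/+ regions, 4 overlapped a WT region by at least 1 bp, or 18.2% (exact binomial 95% interval 5.19 to 40.3, counting error only), beside 14.7% of the whole Nan/+ list. Of the 39 WT regions, 4 overlapped a Nan/+ region, or 10.3% (2.87 to 24.2), beside 24.5% of the whole WT list. Both intervals treat regions as independent, although 14 of the 39 WT regions lay at Fech and 8 at Cpox. They are therefore no test of a difference from the whole lists. These were 1 pair each at Alas2, Urod, Cpox and Fech, so 4 of the 7 genes held a shared region, against 13.3% of all genes. Alad, Uros and Ppox held none.

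The shared pairs at Urod, Cpox and Fech lay within 1 kb of a gene start or end, and the pair at Alas2 lay farther inside the gene. Within 1 kb of a start, a region was called at 5 of the 7 genes in Nan/+ (Alas2, Uros, Urod, Cpox and Fech) and at 4 in WT (Uros, Urod, Cpox and Fech). Fech has no entry in the promoter table and was judged by either of its ends. Among all genes with an entry, 16.7% had a Nan/+ region and 22.7% a WT region within 1 kb of a start, and 16.9% and 21.9% of all genes had one within 1 kb of either end. A region over the start itself, or at Fech over a gene end, was called at 3 genes in Nan/+, Alas2, Cpox and Fech. In WT such a region was called at 4, Uros, Urod, Cpox and Fech. The share of all genes at this stricter distance was not counted.

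**Figure D2:**
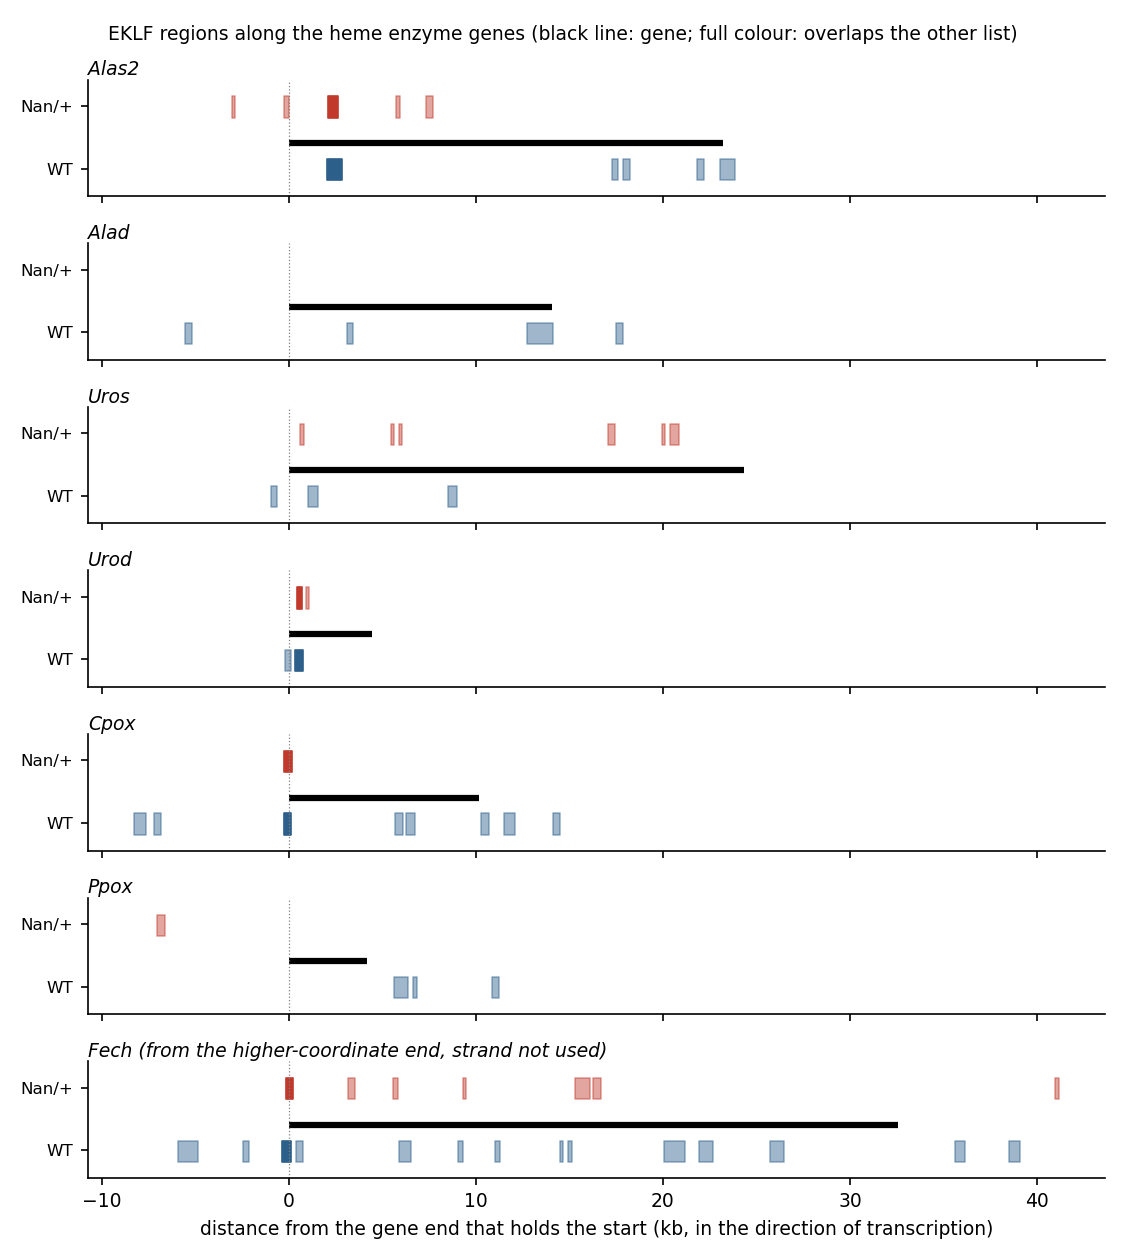
Position of every EKLF region along the 7 genes in kb, with Nan/+ regions above the gene line and WT regions under it, full colour for regions that overlap the other list. The axis runs from the gene end that holds the start, or for Fech from the higher-coordinate end. At Alas2 the Nan/+ regions lie on the start side of the gene and the WT regions other than the shared one lie towards its far end.

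Alas2 (chrX:150547417-150570622, plus strand) encodes the erythroid aminolevulinate synthase, the first and rate-limiting enzyme of heme synthesis in red cell precursors. It held 5 Nan/+ regions and 5 WT regions, mostly at different positions. In each list 1 of the 5 overlapped the other list, beside 14.7% of all Nan/+ regions and 24.5% of all WT regions. The shared pair lay inside the gene, with the Nan/+ region at chrX:150549495-150550054 (560 bp) wholly within the WT region at chrX:150549492-150550256 (765 bp). Both began about as far downstream of the start, 2078 bp in Nan/+ and 2075 bp in WT.

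The other Nan/+ regions at Alas2 were grouped around the start. One lay over the start itself at chrX:150547174-150547424 (251 bp), at positions -243 to 7 relative to it. The rest were a region of the minimum width, 176 bp, that ended 2842 bp upstream, and regions that began 5750 and 7346 bp downstream. No WT region lay within 1 kb of this start, and the WT region nearest to the Nan/+ region over it was 2067 bp away. The other 4 WT regions lay in the far part of the gene, beginning 17267, 17855, 21815 and 23044 bp downstream, and the last of these, at chrX:150570461-150571280 (820 bp), covered the end of the gene. Each of these 4 was at least 9576 bp from the nearest Nan/+ region. The gene table lists a span for the neighbouring gene Apex2, which encodes a DNA repair endonuclease, that takes in all of these positions, so they counted for Apex2 too.

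In the stretch before the Alas2 start, CCNCNCCC matched 4 times between positions -42 and -19, all inside the Nan/+ region, and 3 of these matches overlapped each other. Among 21045 promoter stretches of the same length, 13.0% held at least 4 matches and 53.4% at least 1. Of the forms that differ at the central base, CCNCACCC matched 2 times and CCNCGCCC 1 time at Alas2, and these were present in 16.5% and 29.1% of all stretches. The shorter CACCC matched 3 times within the same run, and 54.4% of stretches held it. The GATA-type site AGATAA matched once, at positions -86 to -81, and 8.84% of stretches held it. A match is a description of the letters and does not show where the protein was bound.

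**Figure D3:**
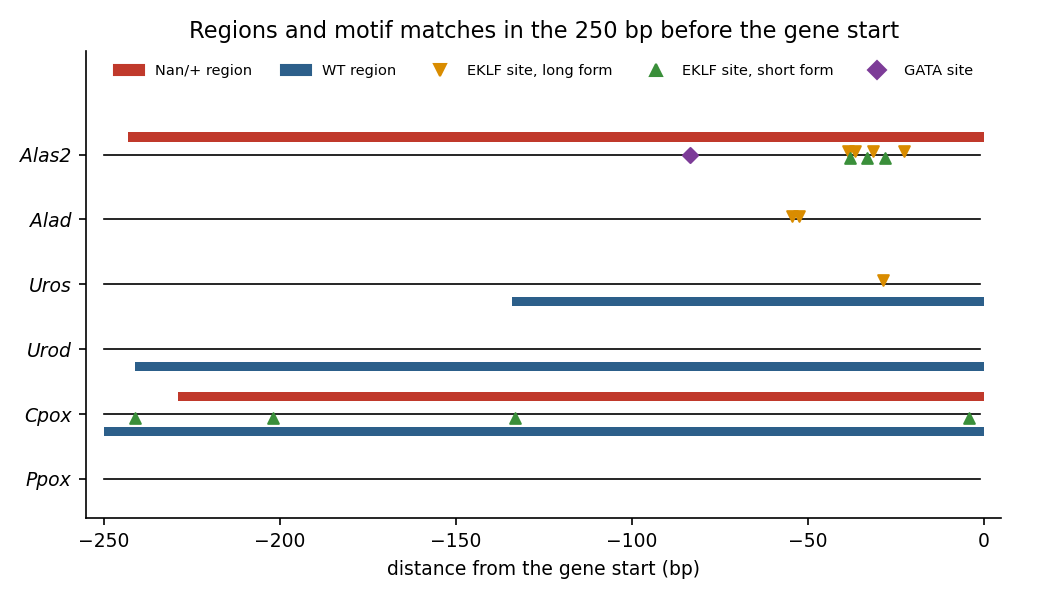
The 250 bp before the start of 6 of the genes, with Nan/+ regions as bars above each line, WT regions as bars under it and markers for matches on either strand to the long (CCNCNCCC) and short (CACCC) EKLF-type sites and to AGATAA. Alas2 has a Nan/+ region alone, Uros and Urod a WT region alone, Cpox both, and Alad and Ppox neither.

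Alad (chr4:62505984-62520063, minus strand) encodes aminolevulinate dehydratase, which joins pairs of aminolevulinate molecules into the pyrrole porphobilinogen. It held 0 Nan/+ regions and 4 WT regions, and was the member without any Nan/+ region. The WT region at chr4:62505936-62507335 was 1400 bp wide, the widest at any of the 7 genes and at the 99.0 percentile of widths in the WT list, and it spanned the end of the gene away from the start. Another, at chr4:62516620-62516943 (324 bp), lay inside the gene, 2966 bp downstream of the nearer of its 2 listed starts. The remaining WT regions lay in the flanks, 1 of them 5186 bp upstream of the start and inside the neighbouring gene 4933430I17Rik. The nearest Nan/+ regions were 31166 to 54200 bp away from these WT regions. No region in either list reached the 250 bp before either Alad start, although CCNCNCCC matched 2 times before 1 start and 4 times before the other, whose stretches share bases.

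Uros (chr7:133686142-133710467, minus strand) encodes uroporphyrinogen III synthase, which closes the tetrapyrrole ring in the form used for heme. It was the member with more regions in Nan/+, 6 in Nan/+ and 3 in WT, and no pair overlapped. Of the Nan/+ regions, 3 had the minimum width of 176 bp, and 3 were wider, at 433, 373 and 223 bp. The WT regions were 468, 546 and 314 bp wide. Without the Nan/+ regions of minimum width the count was 3 in Nan/+ and 3 in WT. This filter was applied to the Nan/+ list alone, so it could only lower the Nan/+ count. With regions closer than 300 bp merged, Uros had 4 in Nan/+ and 3 in WT.

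Around the upstream start of Uros, the lists gave neighbouring positions. The Nan/+ region at chr7:133709661-133709883 (223 bp) lay at positions -588 to -366 relative to this start. The WT region at chr7:133708884-133709429 (546 bp) lay over the start, and the gap between these regions was 231 bp. One CCNCNCCC match, at positions -32 to -25, fell inside the WT region and outside every Nan/+ region. This Nan/+ region and the WT region at chr7:133711114-133711427 also lay inside the listed span of Bccip. The other 5 Nan/+ regions were farther inside the gene, at least 2483 bp from any WT region.

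Urod (chr4:116989965-116994436, minus strand) encodes uroporphyrinogen decarboxylase, the last cytosolic enzyme before coproporphyrinogen enters the mitochondrion. It held 2 Nan/+ regions and 2 WT regions, all within 1082 bp of its start. The Nan/+ region at chr4:116993707-116993986 (280 bp) lay wholly within the WT region at chr4:116993695-116994117 (423 bp), downstream of the start. The second Nan/+ region, of the minimum width, lay farther into the gene, from 907 to 1082 bp downstream, and 188 bp from the nearest WT region. The second WT region, at chr4:116994322-116994654 (333 bp), covered positions -241 to 91, the start among them, and the nearest Nan/+ region was 335 bp away. As the sequence above shows, that stretch held no CCNCNCCC or CACCC match, while 4 matches to the E-box CANNTG were present, a site found in 62.8% of stretches.

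Cpox (chr16:58670208-58680391, plus strand) encodes coproporphyrinogen oxidase of the mitochondrial intermembrane space. It held 1 Nan/+ region and 8 WT regions. The 1 Nan/+ region, at chr16:58669979-58670394 (416 bp), covered the start and overlapped the WT region at chr16:58669947-58670348 (402 bp) by 370 bp. These widths are not set against each other, because the calling settings differed between the lists. Of the 4 CACCC matches before the start, 3 lay in both the Nan/+ and the WT region and 1, at positions -243 to -239, in the WT region alone.

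The other 7 WT regions at Cpox had no Nan/+ counterpart within 5 kb. Upstream lay 2 of them, at chr16:58661949-58662584 (636 bp) and chr16:58662995-58663366 (372 bp). Inside the gene lay 2 more, at chr16:58675889-58676330 (442 bp) and chr16:58676478-58676967 (490 bp). Beyond the far end lay 3, of 447, 570 and 388 bp, the first of them beginning 90 bp past that end. The distance of these 7 to the Nan/+ region was 5494 to 13925 bp. At least 8 WT regions were called at 73 genes, or 0.339% of all genes, whereas at least 1 Nan/+ region was called at 37.5%.

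Ppox (chr1:171276991-171281193, minus strand) encodes protoporphyrinogen oxidase of the inner mitochondrial membrane. It held 1 Nan/+ region and 3 WT regions, none of them inside the gene. The Nan/+ region, at chr1:171287791-171288250 (460 bp), lay at positions -7064 to -6605 relative to the start. The WT regions all lay on the other side, beyond the far end of the gene, and 2 of them, of 210 and 768 bp, lay inside B4galt3, which encodes a galactosyltransferase. Assigned to the 1 nearest gene, Ppox kept 0 Nan/+ and 0 WT regions. The stretch before its start held no CCNCNCCC, CACCC or AGATAA match and no region.

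Fech (chr18:64456542-64489098) encodes ferrochelatase, which inserts iron into protoporphyrin to complete heme. It held 7 Nan/+ regions and 14 WT regions, the most in either list among the 7 genes. At least 14 WT regions were called at 12 genes, or 0.0558% of all genes, and at least 7 Nan/+ regions at 318 genes, or 1.48%. The shared pair lay at the higher-coordinate end of the gene, with the Nan/+ region at chr18:64488848-64489262 (415 bp) and the WT region at chr18:64488966-64489428 (463 bp) overlapping by 297 bp.

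Several other Nan/+ regions at Fech lay beside WT regions without touching them. The Nan/+ region at chr18:64479601-64479776, of the minimum width, was 13 bp from the WT region at chr18:64479790-64480054. The Nan/+ region at chr18:64483280-64483500 was 103 bp from the WT region at chr18:64482582-64483176. The widest Nan/+ region at any of the 7 genes, at chr18:64473014-64473820 (807 bp, the 97.9 percentile of its list), was 121 bp from a WT region of 207 bp, a width at the 13.6 percentile of the WT list. By contrast, the wide WT regions at chr18:64462631-64463394 (764 bp), chr18:64466428-64467148 (721 bp) and chr18:64467939-64469020 (1082 bp) lay in a part of the gene with no Nan/+ region nearer than 3392 bp. The WT region at chr18:64493966-64495018 (1053 bp), in the flank beyond the higher-coordinate end, was 4703 bp from the nearest Nan/+ region.

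Distances between the lists differed among the genes. Counting overlaps and gaps of up to 1 kb, 9 of the 22 Nan/+ regions and 11 of the 39 WT regions had a neighbour in the other list, beside 20.2% of all Nan/+ regions and 33.8% of all WT regions. Those with a gap in place of an overlap numbered 5 in Nan/+ and 7 in WT, and lay at Uros, Urod and Fech. The median gap was 1973.5 bp for the Nan/+ regions of the 7 genes, against 20427 bp over the Nan/+ list. The 7 genes held 0.425% of the WT list and 0.141% of the Nan/+ list, so WT regions were relatively dense there. The effect of this density on the gaps was not tested. The WT regions had a median gap of 5264 bp, against 5314 bp over the WT list. The Nan/+ list is the longer one, so a gap measured from a WT region has more regions to meet, and gaps are set beside their own list only.

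**Figure D4:**
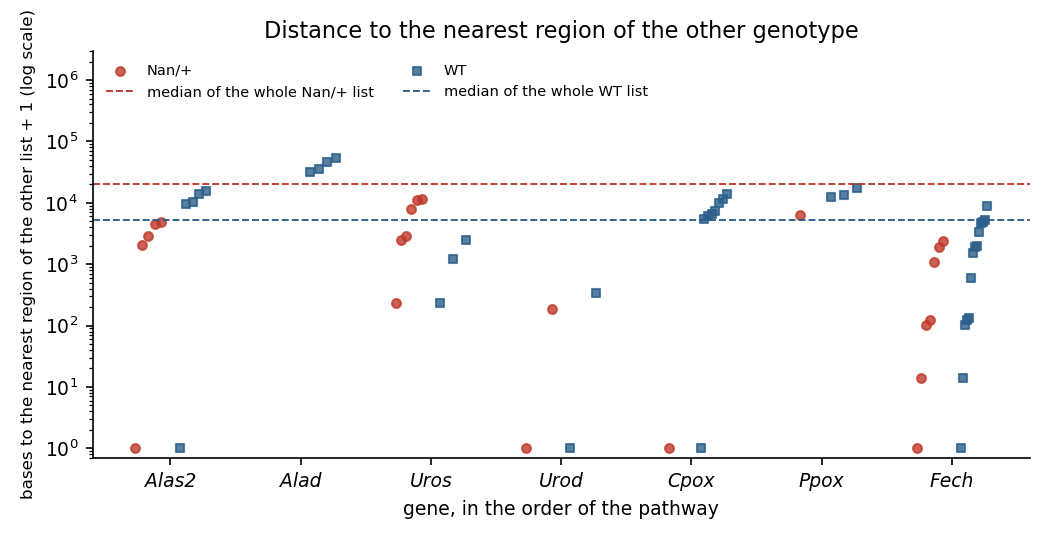
Bases from each region to the nearest region of the other genotype, plus 1, on a log scale (overlapping regions sit at 1), with Nan/+ circles left of WT squares and dashed lines at the medians of the whole lists. Alad has no Nan/+ circle and its WT squares lie highest, from 31166 to 54200 bp, while the Fech points reach down to gaps of 13 bp.

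At the 7 genes 17 Nan/+ regions lay inside the gene and 5 in a flank, while 20 WT regions lay inside and 19 in a flank. Some flank regions lay inside a neighbouring gene. Inside any protein-coding gene lay 19 of the 22 Nan/+ regions (86.4%), beside 67.5% of the whole Nan/+ list, and 25 of the 39 WT regions (64.1%), beside 63.4% of the whole WT list. The regions of the 7 genes were taken for lying in or near a gene and the whole lists were not. The shares inside genes are therefore not like for like. Among the flank regions, Cpox contributed 1 Nan/+ and 6 WT regions and Fech 1 Nan/+ and 5 WT regions. Of the regions at the 7 genes, 12 in Nan/+ and 19 in WT also lay within 10 kb of another protein-coding gene.

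Region width can be read only within a list, because the calling settings differed. The Nan/+ regions at these genes had a median width of 265.5 bp, from 176 to 807 bp, against a median of 176 bp in the Nan/+ list. Of these 22 regions, 7 had the minimum width of 176 bp, 3 of them at Uros, 2 at Fech and 1 each at Alas2 and Urod, where 54.5% of the whole Nan/+ list had it. The WT regions had a median of 423 bp, from 157 to 1400 bp, against 396 bp in the WT list, and 0 of 39 had that list's minimum of 126 bp, beside 3.29% of the WT list.

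**Figure D5:**
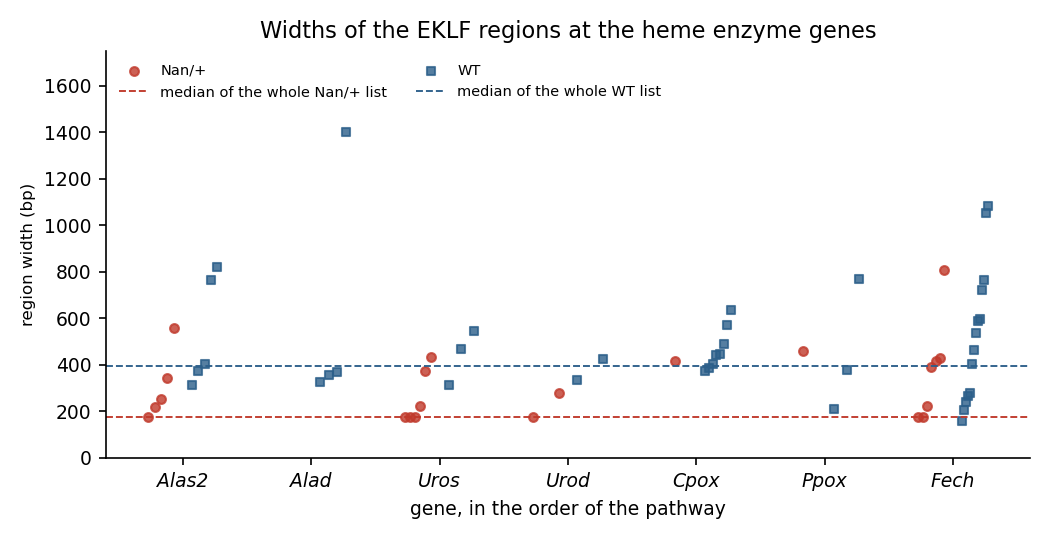
Width in bp of every region at the 7 genes, with Nan/+ circles left of WT squares and dashed lines at the median width of each whole list. The widest regions are the WT region of 1400 bp at Alad and, among Nan/+ regions, that of 807 bp at Fech, and 3 of the 6 Nan/+ regions at Uros sit at 176 bp.

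Counts of the same make-up were looked for among all protein-coding genes, taking the number of Nan/+ regions, of WT regions and of shared WT regions over these 2 lists. No other gene matched Fech. The counts of Cpox were matched by 2 other genes, Kel, which encodes a red cell surface antigen, and E2f2, which encodes a cell cycle factor. The counts of Alas2 were matched by 3 genes, of which Brpf3 and Larp1 were closest in length, and those of Uros by 6, Smarca4 and Ninj2 being closest. Alad was matched by 15 genes, with Plagl2 and Lrwd1 closest. The small counts of Ppox and Urod were matched by 78 and 174 genes.

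Other genes of the heme pathway were counted in the same way. Alas1, the form of aminolevulinate synthase used outside red cells, had 0 Nan/+ regions and 1 WT region. Of 16 genes for transport, iron-sulfur clusters and partners of Alas2, 12 had a Nan/+ region and 13 a WT region. The shares of all genes were 37.5% and 33.5%. Among those 16, 8 had fewer regions in Nan/+ and 3 had more, beside 15.2% and 23.0% of all genes. Another 4 had equal numbers above 0 and 1 had none in either list, and the median difference over the 16 was -0.5. The largest deficits in Nan/+ were at Slc25a38, a mitochondrial glycine carrier (0 in Nan/+ and 5 in WT), Abcb10, a mitochondrial transporter that stabilises mitoferrin (6 in Nan/+ and 11 in WT), and Tmem14c, a mitochondrial porphyrin transporter (0 in Nan/+ and 3 in WT).

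Among genes of heme breakdown and sensing, more had an excess in Nan/+ than a deficit, as among all genes. Of 9 such genes, 7 had a Nan/+ region and 6 a WT region, beside 37.5% and 33.5% of all genes. More regions were called in Nan/+ at 5, beside 23.0% of all genes, and fewer at 1, beside 15.2%. Equal numbers above 0 were found at 1 and none in either list at 2. The median difference was 1 over the 9 genes. The excess was 1 region each at Hmox1, Eif2ak1, Ireb2 and Slc48a1. Bach1, a heme-binding repressor of heme oxygenase and globin genes, had 4 in Nan/+ and 1 in WT. Among all genes the median was 0, and the difference between these lists of genes was not tested.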

How the data were processed

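EKLF ChIP from fetal liver was used, as 1 region list per genotype. Other assays and inputs of the 43 samples were not analysed here. Per the file headers, the authors called regions with HOMER on mm10 from 3 ChIP libraries per genotype against inputs, where 2 input libraries filled 3 places. The thresholds were q 0.01 and fold 4, with DESeq2 inside HOMER at FDR 0.01 and log2 fold 2. Nan/+ calling used size 175 bp and minimum distance 300 bp, and WT calling 125 bp and 250 bp, per the file headers. Tools listed in the submitters' processing notes are Bowtie2 2.1 and SAMtools 1.1, with bcl2fastq 2.17 and deepTools 3.5. The score deposited by the authors is 1 in every row, so positions and widths alone were used.

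BED starts were counted from 1. Genes came from RefSeq (GRCm38.p6). Of 21900 protein-coding genes, those outside chromosomes 1 to 19 and X, and 108 on alternate loci, were left out. Starts came from the promoter table, which holds 6 of the 7 genes. Exons were not given. Analyses used Python 3.11.15 with pandas 2.3.3 and SciPy 1.17.1. Overlap and assignment were tested on simulated data. The naming rule took all 7 genes with every region, Alas1, up to 3 pathway genes per direction, neighbours holding a region, and up to 2 genes of matching counts per member. Members and lists were chosen with earlier results of these data known.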

Additional observations from a re-analysis of the deposited data

How the results depend on the processing

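No paired analysis was possible because the libraries of a genotype were merged into a single list, so no replicate could be left out either. With regions counted over the start itself, starts with a Nan/+ region numbered 3 rather than 5, at Uros and Urod by construction of the stricter distance. The other 62 alternative values for the pathway stayed within 1.5 times: Nan/+ regions numbered 15 to 32, WT regions 31 to 48, shared regions 4 or 5, and genes with fewer Nan/+ regions 4 to 6. With Nan/+ regions wider than the minimum, or lists of equal length by width, 6 of 7 genes had fewer Nan/+ regions, and Uros had 3 in each list. The share of all genes with fewer was then 21.8% or 20.1%. Both settings removed regions from the Nan/+ list alone, so they could only lower the Nan/+ counts. Values of single genes and of the other pathway lists stayed within 1.5 times in 131 cases and moved farther in 31. The ties at Alas2 and Urod did not hold in every alternative: Nan/+ minus WT was -1 to 1 at Alas2 and -1 to 2 at Urod over the alternatives. Per-gene alternatives were chosen after seeing the data. The lists give no tag counts, so low occupancy and absent occupancy look alike.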

Other observations

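Beyond the flanks, from 10 to 50 kb from the ends of the 7 genes, 10 Nan/+ and 9 WT regions were called. Of each, 1 overlapped the other list, at Uros, beside 14.7% of all Nan/+ regions and 24.5% of all WT regions. Alad had 1 Nan/+ region in this wider zone and 0 WT regions, Urod 2 and 0, and Cpox and Ppox each 0 Nan/+ regions and 2 WT regions. Promoter stretches with a region in both lists held CCNCNCCC in 75.0% of cases, those with a Nan/+ region alone in 68.0%, those with a WT region alone in 70.8% and those with neither in 47.9%, a description over stretches that are not replicates.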
